A study of Rattus norvegicus with 14 samples.

Results

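The subunits of heterotrimeric G proteins and the RGS regulators that switch them off were measured in CA3 of rats that had or had not just learned a new place. Members were all probe sets of the array whose platform annotation gives 1 gene alone with the symbol Gnao1, Gnas, Gnal, Gnaq or Gnaz, or Gnai, Gna, Gnb, Gng or Rgs followed by a number. They came to 35 of the 10411 genes named this way on the array, measured by 47 probe sets. The members were 9 alpha, 5 beta, 6 gamma and 15 RGS genes, and Gnal was not among the genes matched. A further 2 probe sets name Gnai1 together with Gnai3 and were left out.

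RNA of microdissected CA3, a field of the hippocampus whose pyramidal neurons are densely interconnected, was hybridised to Affymetrix RAE230A arrays, 1 per animal. All 14 animals were male Long-Evans rats aged 3 to 4 months that had learned an ordinary water maze 2 to 3 weeks earlier. The 7 rats of the learning group then swam 8 trials in an unfamiliar maze with orienting cues and a fixed visible platform. The 7 control rats swam as many trials with a visible platform that changed place and no informative cues. All were killed after a probe trial of 90 s that followed the last training trial by 1 h. The series asks whether rapid encoding of a place alters plasticity transcripts in CA3, and cues and platform movement differed between the groups along with it.

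A heterotrimeric G protein couples a receptor on the cell surface to enzymes and channels inside it. The activated receptor makes the alpha subunit exchange GDP for GTP, and alpha and the paired beta and gamma subunits then each act on effectors until alpha hydrolyses its GTP. RGS proteins speed up that hydrolysis and so shorten the signal. In hippocampal neurons the Gi/o proteins carry the actions of adenosine, GABA-B, cannabinoid and serotonin receptors on transmitter release and potassium currents, while Gq acts through phospholipase C and Gs through adenylyl cyclase.

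Among these genes, the alpha subunits Gnao1 and Gnai1 rose in the learning group, by 1.45-fold and 1.33-fold. None of the 26 other members tested passed. Levels are log2 values as deposited, after background correction and normalization by GCRMA, and each gene is given at the probe set with the highest mean over the 14 arrays. Of the 35 genes, 28 had a mean log2 level there above the filter of 3.88 and were tested with limma. Calls were made where the Benjamini-Hochberg adjusted p, taken over all 9520 probe sets tested, was under 0.05. Of the 28 genes, 2 were called higher and 0 lower, while 4 had an unadjusted p under 0.05 in the higher and 3 in the lower direction. Of the 6836 array genes tested in this way, 1.59% were called higher and 0.98% lower, 2.57% in all. Of the 36 member probe sets tested, the same 2 were called, against 3.35% of all probe sets tested (2.55% higher and 0.798% lower). No test set the members against that background. At an unadjusted p under 0.05 the background was 6.33% of genes higher and 12.3% lower. Of the members, 15 of 28 (53.6%) had a difference above 0, against 36.1% of all genes.

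In bulk tissue, fewer cells of a type and less RNA per cell cannot be told apart. The CA3 markers Nptx1, Bok and Grik4 lay above the filter, as did all 4 CA1 markers on the array. The mean of the 3 CA3 markers ran from 9.39 to 9.72 in control and from 9.45 to 9.68 in learning arrays. That of 4 general neuronal markers (Snap25, Nefl, Slc17a7, Rbfox3) ran from 11.48 to 11.71 in control and from 11.71 to 11.89 in learning arrays, 0.17 higher (two-sided exact permutation p = 5.83e-04, the smallest that 3432 assignments can give). Of the other lists, the mean of the 3 choroid plexus markers tested was 0.94 lower (exact permutation p = 0.0012). Ttr had -2.09 (limma adjusted p = 0.0124), Igfbp2 -0.70 (0.237) and Enpp2 -0.0287 (0.844). Folr1, Kl and Sostdc1 lay below the filter. The means of the dentate, CA1, CA2, interneuron, astrocyte, oligodendrocyte, microglial, endothelial and mural lists differed by -0.18 to 0.06 (exact permutation p of 0.0728 or more). Of the 6 dentate markers on the array, 2 lay above the filter. In the interneuron list Gad2 had 0.76, while the others had negative values, the lowest -0.23 for Sst. In the astrocyte list Slc1a2 had 0.45 and Fgfr3 0.0267, while the others had negative values, the lowest -0.21 for Aldh1l1.

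Some signs of RNA and hybridization quality moved with the groups as well. The Gapdh 3'/5' ratio, which rises with RNA breakdown, was 0.51 ± 0.06 (SD, n = 7) in control and 0.45 ± 0.05 in learning arrays on the log2 scale (exact permutation p = 0.0443), and spike-in controls were 0.20 brighter in the learning arrays (exact permutation p = 0.0052). The actin and hexokinase 3'/5' ratios differed less clearly, by -0.0502 (exact permutation p = 0.460) and -0.22 (exact permutation p = 0.281). Control replicate 5 had the highest Gapdh, actin and hexokinase ratios of all arrays, and without it the Gapdh difference had an exact permutation p of 0.0886. Over 346 other genes with probe sets at least 2 log2 units apart, the dimmest minus the brightest averaged -3.41 ± 0.11 in control and -3.24 ± 0.03 in learning arrays (exact permutation p = 5.83e-04). The part of these measures and of the higher neuronal markers in the results below, those of Gnao1 and Gnai1 among them, was not tested. Values with the Gapdh ratio, the spike-in level and the probe set balance as covariates are given for the members called. No alternative had the neuronal markers as covariate.

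**Figure D1:**
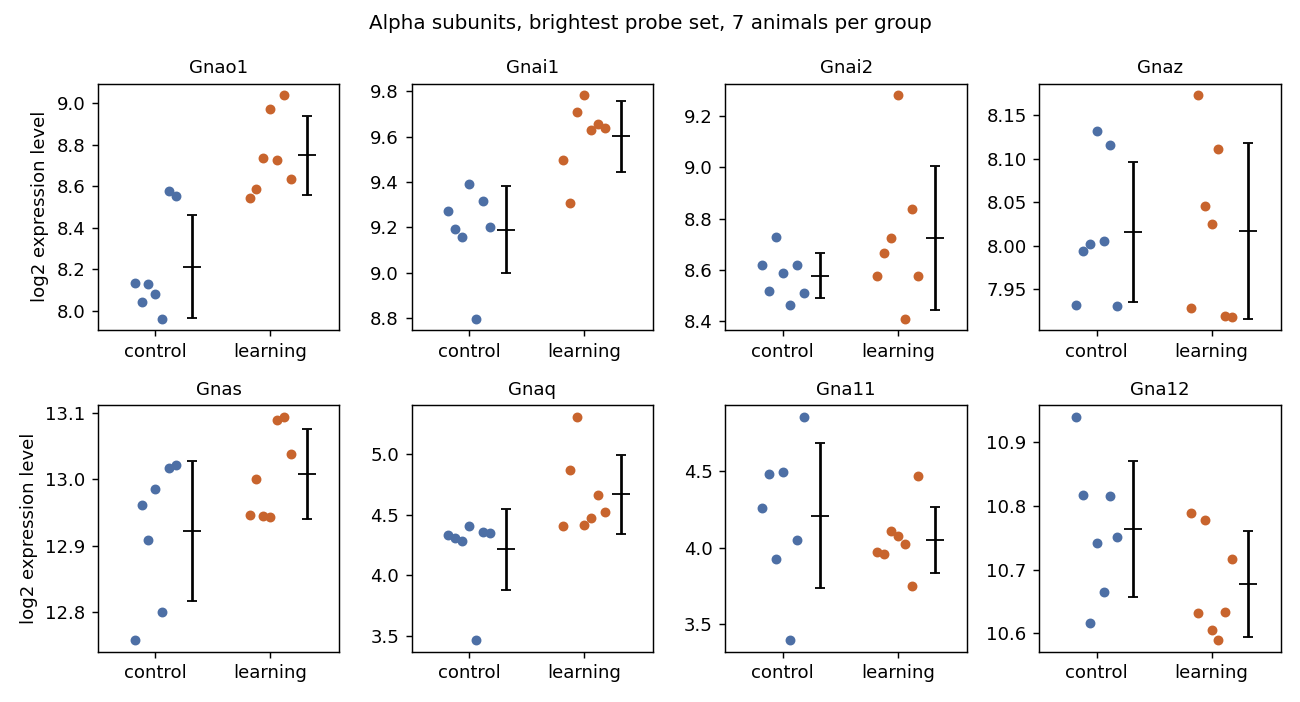
Log2 expression level (vertical axis) of the 8 tested alpha subunits at their brightest probe sets, 1 point per animal, with the mean and SD of 7 animals beside each group; every panel has its own scale. For Gnao1 and Gnai1, 6 of 7 learning animals lie above every control animal, and for Gnaq all 7 do.

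Gnao1 encodes the alpha subunit of Go, the most abundant G protein of neurons, which slows calcium channels and transmitter release. Its log2 level lay between 7.96 and 8.58 in the control animals (median 8.13) and between 8.54 and 9.04 in the learning animals (median 8.73). Of the 7 learning animals 6 lay above every control animal, and 5 of the 7 controls lay below every learning animal. The means were 8.21 ± 0.25 and 8.75 ± 0.19 (SD, n = 7 each), so that Gnao1 was 0.54 higher on the log2 scale (SE 0.11, limma adjusted p = 0.0166).

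Gnai1 encodes the alpha subunit of Gi1, which inhibits adenylyl cyclase. It ran from 8.80 to 9.39 in control (median 9.20) and from 9.31 to 9.78 in learning animals (median 9.64). The groups overlapped by 1 learning animal and the 2 highest controls, and all 7 learning animals lay above the control mean. The means were 9.19 ± 0.19 and 9.60 ± 0.16, so that Gnai1 was 0.41 higher on the log2 scale (SE 0.0869, limma adjusted p = 0.0201). Control replicate 5 was the lowest of all 14 arrays at 8.80, and without it the log2 fold change was 0.35 (adjusted p = 0.0166).

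Neither call was lost when any single array was left out, and the sign of both held in all 30 alternatives. Changes of filter, variance model, adjustment or replicate block leave a log2 fold change as it is and could not test its sign. The same holds for the mean over probe sets, as each gene had 1. With the Gapdh ratio as covariate neither passed, at 0.46 for Gnao1 (adjusted p = 0.128) and 0.32 for Gnai1 (adjusted p = 0.146). The balance between dimmer and brighter probe sets as covariate brought them to 0.26 (adjusted p = 0.617) and 0.12 (adjusted p = 0.723). That balance differed between the groups itself, as did the Gapdh ratio and the spike-in level. The part of such a measure and a difference between the groups cannot be fully told apart here, and neither was tested. With the spike-in level as covariate Gnao1 was 0.65 (adjusted p = 0.026) and Gnai1 0.45 (adjusted p = 0.0608), and without a filter on dim probe sets Gnai1 had an adjusted p of 0.0516.

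**Figure D2:**
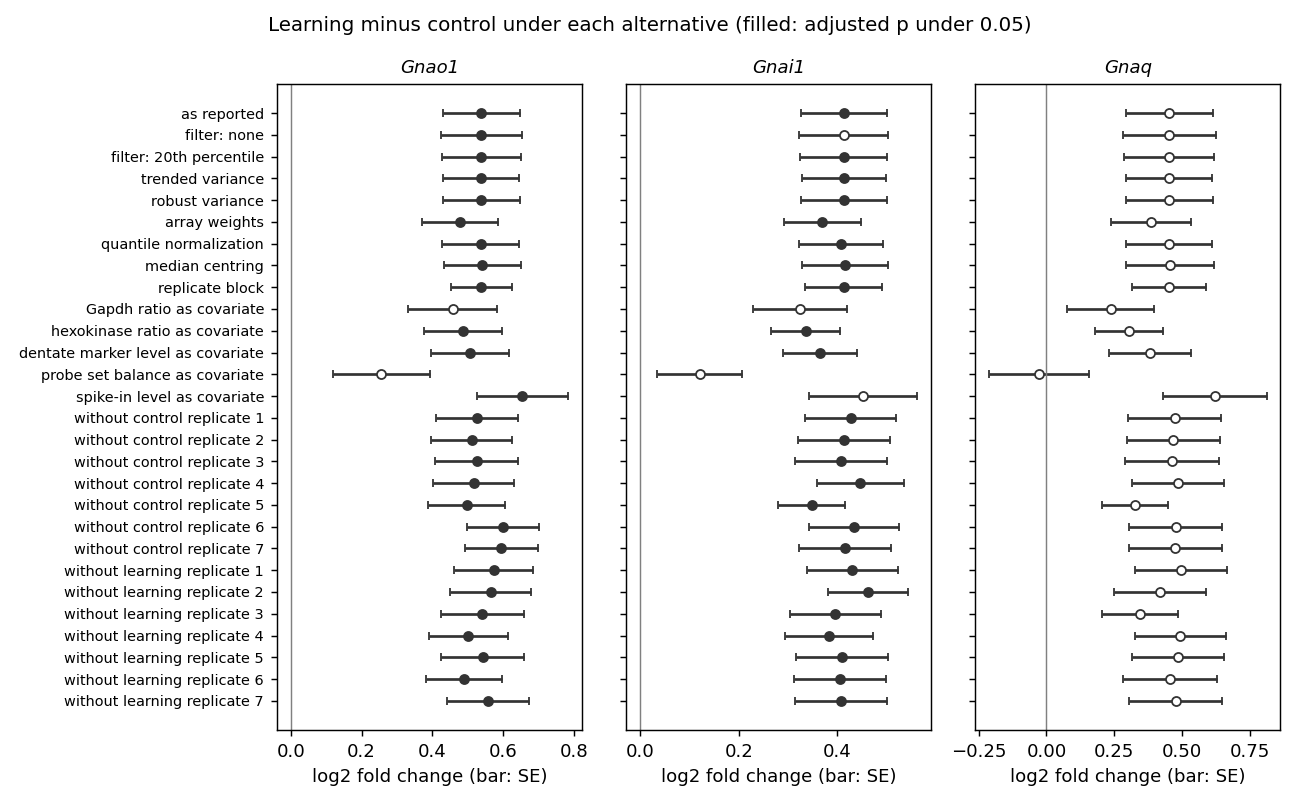
Log2 fold change, learning minus control (horizontal axis, with SE), of Gnao1, Gnai1 and Gnaq as reported and with other filters, variance models, normalizations, covariates or arrays left out; filled points have an adjusted p under 0.05. The lowest values are those adjusted for probe set balance, 0.26 for Gnao1, 0.12 for Gnai1 and -0.03 for Gnaq.

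The promoters of the 2 genes that rose are shown because they were the only members called. The 250 bases before each gene's start were taken from RefSeq on the rat assembly GRCr8 and are written 5′ to 3′ on the gene's strand. They span chr19:11198438-11198687 on the minus strand for Gnao1 and chr4:17705811-17706060 on the plus strand for Gnai1. Capitals mark matches on either strand to motifs linked to activity-driven or general transcription: TGACGTCA (cyclic AMP response element), its core TGACG, GCGTGGGCG (EGR), TGANTCA (AP-1), CACGTG (E-box), GGGCGG (bound by SP1) and, for the core promoter box of that name, TATAAA.
Gnao1: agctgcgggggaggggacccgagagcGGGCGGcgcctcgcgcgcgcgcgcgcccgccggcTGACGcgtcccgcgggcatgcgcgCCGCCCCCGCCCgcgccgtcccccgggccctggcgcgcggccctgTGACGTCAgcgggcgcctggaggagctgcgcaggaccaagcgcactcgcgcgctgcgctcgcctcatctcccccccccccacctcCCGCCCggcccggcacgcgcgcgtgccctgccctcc
Gnai1: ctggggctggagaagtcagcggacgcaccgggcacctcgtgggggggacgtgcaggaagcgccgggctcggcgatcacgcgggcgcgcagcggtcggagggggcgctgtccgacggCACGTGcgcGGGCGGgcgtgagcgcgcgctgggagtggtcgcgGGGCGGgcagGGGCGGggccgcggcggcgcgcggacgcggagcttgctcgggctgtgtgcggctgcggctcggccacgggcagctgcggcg

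Both windows were rich in G and C, 83.6% for Gnao1 and 80.4% for Gnai1, against a median of 51.2% over 33469 rat promoters and 63% over the 30 members with an entry. Gnao1 held 1 full cyclic AMP response element, 121 to 114 bases before the start, a motif found in 1.59% of all these windows and in 1 of the 30 members. The core alone, which the full element contains on both strands, was in 9 of the 30 members and 18.2% of all windows, and Gnai1 had 0. Gnai1 held 1 E-box, found in 3 of the 30 members and 5.59% of all windows. SP1 matches numbered 4 in Gnao1 and 3 in Gnai1, and 19 of the 30 members held at least 1, against 30.5% of all windows. The EGR, AP-1 and TATA motifs (in 0.478%, 6.34% and 12.9% of all windows) had no match in either promoter, and among the members they were found in 1, 2 and 5.

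The other Gi-class subunits did not pass. Gnai2, the Gi subunit that glia and blood cells also use, ran from 8.46 to 8.73 in control and from 8.41 to 9.28 in learning animals (medians 8.59 and 8.67). The learning animals were the more scattered group, with an SD of 0.28 against 0.0893, and the log2 fold change was 0.15 (SE 0.10, adjusted p = 0.451). Gnaz, whose product Gz inhibits adenylyl cyclase and turns over GTP slowly, was level at its brightest probe set, 8.02 ± 0.08 in control and 8.02 ± 0.10 in learning animals. At a dimmer probe set Gnaz differed by 0.22 (SE 0.0798, adjusted p = 0.140).

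Gnaq, which activates phospholipase C beta, was the only one of the 28 genes whose groups did not overlap, where 1.4% of all genes tested at their brightest probe sets (and 2.1% of all probe sets tested) did not. It ran from 3.46 to 4.41 in control (median 4.33) and from 4.41 to 5.31 in learning animals (median 4.52), near the filter of 3.88. The gap between the highest control (4.407) and the lowest learning animal (4.409) was far smaller than the spread within either group. Its log2 fold change of 0.45 (SE 0.16) did not pass (adjusted p = 0.133), and without control replicate 5, which was 0.82 below the next lowest control, it was 0.33 (adjusted p = 0.177).

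Gna11, the close relative of Gnaq, had a log2 difference of -0.16 (SE 0.18, adjusted p = 0.676) over a control range of 3.40 to 4.85. Gnas, the stimulatory subunit of an imprinted locus with several transcripts, had 0.0864 (SE 0.0484, adjusted p = 0.342) and lay between 12.76 and 13.02 in control and 12.94 and 13.09 in learning animals. A second Gnas probe set had -0.0911 (adjusted p = 0.523), and the third lay below the filter at a mean of 3.58. Gna12, which acts on RhoGEFs and the actin cytoskeleton, had -0.0863 (SE 0.0515, adjusted p = 0.375). Gna15, a blood cell subunit, lay below the filter at a mean of 1.69.

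The differences between alpha genes on the same array are given as a description, with no test, since Gnao1 and Gnai1 were picked by their calls on these arrays. Gnao1 minus Gnai2 was 0.39 higher in the learning group, Gnao1 minus Gnaz 0.54 and Gnao1 minus Gnas 0.45, with all 7 learning animals above the control mean in each. Gnai1 minus Gnai2 was 0.27 higher, Gnai1 minus Gnaz 0.41 and Gnai1 minus Gnas 0.33, with 6, 6 and 7 learning animals above the control mean. Gnai1 minus Gnao1 was -0.13, and against Gnaq the values were 0.0865 for Gnao1 and -0.0388 for Gnai1, so that Gnaq lay close to both called genes in its difference.

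**Figure D3:**
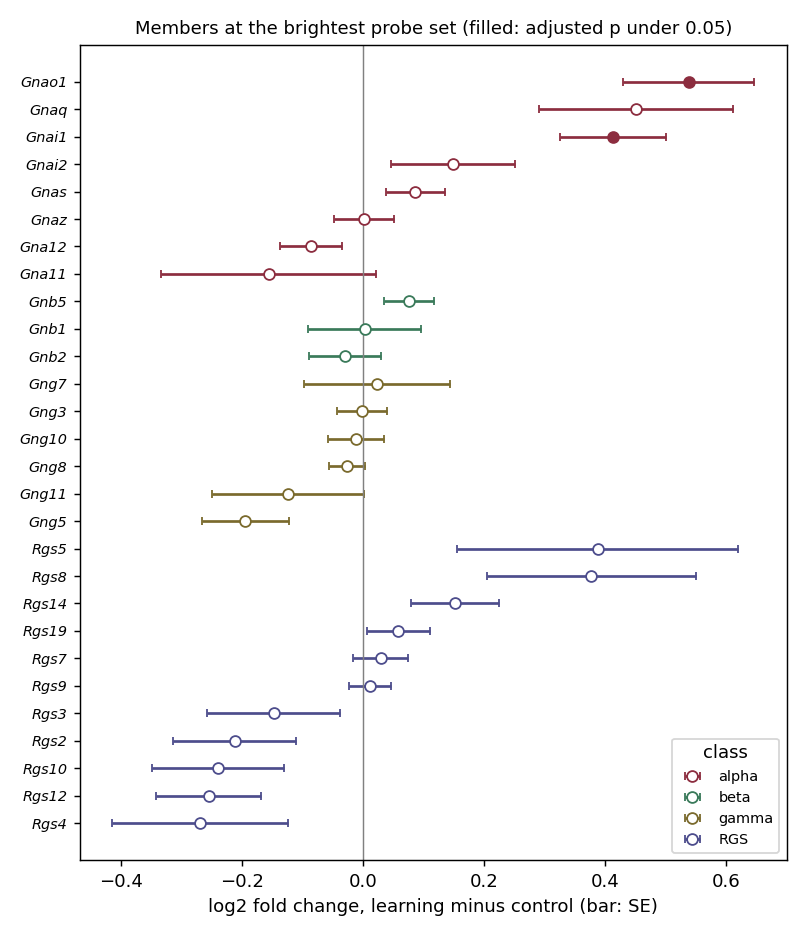
Log2 fold change, learning minus control (horizontal axis, bars are SE), of the 28 tested members at their brightest probe sets, coloured by class; filled points have an adjusted p under 0.05. Gnao1 (0.54) and Gnai1 (0.41) are filled, and the gamma subunits lie between -0.19 and 0.0229.

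Of the 8 alpha genes tested 6 had a difference above 0, with a median of 0.12, and the 4 of the Gi/o/z class had a median of 0.28. Of 3 beta genes 2 lay above 0 (median 0.0022), of 6 gamma genes 1 (median -0.019) and of 11 RGS genes 6 (median 0.0109), and the median of all 6836 genes was -0.0274. No alpha, beta, gamma or RGS gene was called lower, where 0.98% of all genes were. These class counts are a description with no test between the classes. Without control replicate 5 the alpha count was 5 of 8, the beta count 1 of 3 and the gamma count 0 of 6. With arrays centred on their median the gamma count was 2 of 6, and after adjustment for probe set balance 4 of 8 alpha and 2 of 11 RGS genes lay above 0.

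Beta subunits fold as propellers. Those other than Gnb5 never part from their gamma partner, and as a pair they open GIRK channels and slow calcium channels. Of 5 beta genes, Gnb1, Gnb2 and Gnb5 were tested, 0 were called and 0 had an unadjusted p under 0.05 in limma (2.57% and 18.6% over all genes). Gnb5, which pairs with RGS7-type proteins in place of a gamma subunit, had the lowest p, with 8.55 ± 0.06 in control and 8.63 ± 0.08 in learning animals (0.0756, SE 0.0408, adjusted p = 0.321). Its control values ran from 8.44 to 8.61 (median 8.58) and its learning values from 8.52 to 8.73 (median 8.62), and 4 learning animals lay above every control. Gnb2, a widely expressed subunit, ran from 9.84 to 10.30 in control (median 10.12) and from 9.97 to 10.17 in learning animals (median 10.08). It had -0.0302 at this probe set (adjusted p = 0.827) and -0.0304 at the dimmer one (adjusted p = 0.683).

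Gnb1, a beta subunit found in brain and in rod photoreceptors, had 3 probe sets, all tested. Their log2 fold changes were 0.0022, 0.043 and 0.084, with adjusted p-values of 0.993, 0.950 and 0.819. The learning animals scattered more than the controls at each, with SDs of 0.26, 0.68 and 0.41 against 0.0799, 0.41 and 0.22. At the brightest, learning animals ran from 12.31 to 13.10 (median 12.55) around controls of 12.52 to 12.74 (median 12.60). Gnb3 and Gnb4 lay below the filter, at means of 2.38 and 3.01.

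Gamma subunits are small proteins whose lipid tail holds the pair at the membrane. All 6 gamma genes were tested, 0 were called and 1 had an unadjusted p under 0.05 (2.57% and 18.6% over all genes). Gng5, a widely expressed subunit, ran from 8.00 to 8.38 in control (median 8.27) and from 7.75 to 8.18 in learning animals (median 8.07). All 7 learning animals lay below the control mean, and 5 controls lay above every learning animal. The log2 fold change of -0.19 (SE 0.0717) did not pass (adjusted p = 0.143), and the other Gng5 probe set lay below the filter at a mean of 3.09.

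Gng3, a neuronal subunit, was level (11.25 ± 0.07 in control and 11.25 ± 0.07 in learning animals, adjusted p = 0.983). Gng10 had -0.0117 (adjusted p = 0.919), Gng7, the partner of Golf in striatum, 0.0229 (adjusted p = 0.939) and Gng8 -0.0263 (adjusted p = 0.675). The Gng8 values ran from 4.17 to 4.31 in control and from 4.15 to 4.24 in learning animals, with a median of 4.21 in both groups. Gng11, a subunit of endothelial and other non-neuronal cells, ran from 4.28 to 5.30 in control (median 4.36) and from 4.33 to 4.48 in learning animals (median 4.37). Its log2 fold change was -0.12 (adjusted p = 0.627), and without control replicate 3, the array at 5.30, it was 0.0089 (adjusted p = 0.925).

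**Figure D4:**
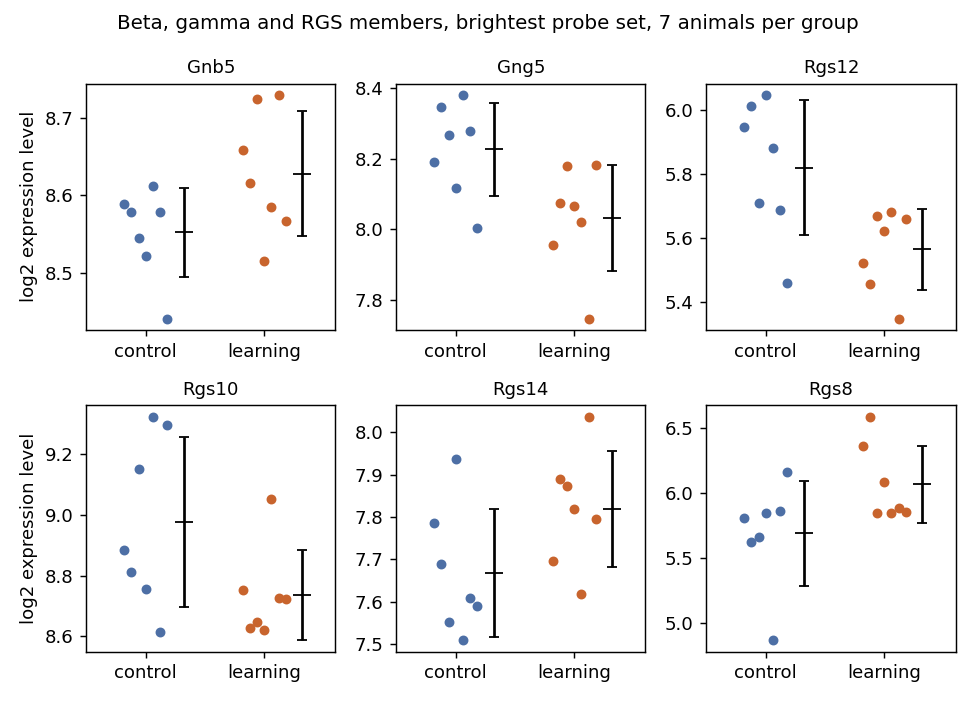
Log2 expression level (vertical axis) of 1 beta, 1 gamma and 4 RGS genes at their brightest probe sets, 1 point per animal, with the mean and SD of 7 animals beside each group; every panel has its own scale. The groups overlap in all 6 genes, and Rgs12 learning values stop at 5.68 while 6 of 7 controls lie above that.

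Of 15 RGS genes 11 were tested, 0 were called, and an unadjusted p under 0.05 was reached by 1 higher and 2 lower ones. Over all genes tested, 2.57% were called, and 6.33% higher and 12.3% lower ones reached that unadjusted p. The R12 group, which acts on Gi/o, holds the lowest p. Rgs12, a large scaffold that also binds Ras, ran from 5.46 to 6.05 in control (median 5.88) and from 5.35 to 5.68 in learning animals (median 5.62). Of the 7 controls 6 lay above every learning animal, and the log2 fold change was -0.26 (SE 0.0867, adjusted p = 0.116). Without control replicate 7, the lowest control, it was -0.32 and passed (adjusted p = 0.033). That was the only 1 of 29 alternatives in which Rgs12 passed.

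Rgs10, a short RGS protein abundant in microglia and also in neurons, ran from 8.61 to 9.32 in control (median 8.88) and from 8.62 to 9.05 in learning animals (median 8.72). Its log2 fold change was -0.24 (SE 0.11, adjusted p = 0.237). Microglial markers, 9 of 11 on the array above the filter and Cx3cr1 and Cd68 below it, averaged from 6.35 to 6.85 in control and from 6.32 to 6.64 in learning arrays (-0.11, exact permutation p = 0.131), and their part in this value was not tested. Rgs14, which limits plasticity in CA2, went the other way with 0.15 (SE 0.0728, adjusted p = 0.264), from 7.51 to 7.94 in control and from 7.62 to 8.04 in learning animals. The CA2 markers Pcp4 and Amigo2 averaged from 9.36 to 9.73 in control and from 9.11 to 9.59 in learning arrays (-0.18, exact permutation p = 0.0728).

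In the R4 group of small RGS proteins, Rgs8, which acts on Gi/o and GIRK channels, ran from 4.86 to 6.17 in control (median 5.81) and from 5.85 to 6.59 in learning animals (median 5.89). The log2 fold change was 0.38 (SE 0.17, adjusted p = 0.237), and without control replicate 5, the array at 4.86, it was 0.24 (adjusted p = 0.352). Rgs5, a marker of pericytes, had 0.39 with a wide error (SE 0.23, adjusted p = 0.377). Its values ran from 3.84 to 5.16 in control and from 4.19 to 5.53 in learning animals. Of the 6 mural markers on the array only Acta2 and Pdgfrb lay above the filter, with 0.11 and 0.0239, and Tagln, Abcc9, Des and Kcnj8 lay below it. Rgs3 had -0.15 (SE 0.11, adjusted p = 0.485), and its other probe sets lay below the filter at means of 3.82 and 2.76.

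The R7 members Rgs7 and Rgs9, which work bound to Gnb5, were level at 0.029 (SE 0.0452, adjusted p = 0.769) and 0.0109 (SE 0.0343, adjusted p = 0.896). Rgs19, of the RZ group, had 0.0581 (SE 0.0519, adjusted p = 0.579). Rgs1, Rgs16, Rgs18 and Rgs22 lay below the filter, at means of 2.67, 2.04, 2.85 and 3.01, and were not tested at this filter.

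Rgs2, an immediate early gene whose product acts mainly on Gq, and Rgs4, a neuronal RGS protein of Gi/o and Gq signalling, each gave opposite signs at their 2 probe sets. The brighter Rgs2 probe set ran from 7.99 to 8.49 in control and from 7.61 to 8.31 in learning animals, with -0.21 for the log2 difference (SE 0.10, adjusted p = 0.262). At the dimmer one, values ran from 6.58 to 7.29 and from 6.62 to 7.64, with 0.18 for the log2 difference (SE 0.14, adjusted p = 0.508). For Rgs4 the brighter probe set ran from 6.82 to 7.77 in control and from 6.60 to 7.18 in learning animals (-0.27, SE 0.15, adjusted p = 0.32). Its dimmer probe set ran from 5.36 to 6.52 and from 5.60 to 6.50 (0.28, SE 0.20, adjusted p = 0.455). None of the 4 passed alone, and the groups overlapped at each.

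Within an animal, however, the gap between the probe sets of Rgs2 and of Rgs4 differed between the groups. The dimmer minus the brighter Rgs4 probe set was -1.34 ± 0.26 in control and -0.79 ± 0.15 in learning animals (SD, n = 7 each), a shift of 0.55 (exact permutation p = 0.0017, adjusted p = 0.007 over 8 pairs). For Rgs2 it was -1.30 ± 0.14 and -0.91 ± 0.14, a shift of 0.39 (exact permutation p = 0.0012, adjusted p = 0.007). All 7 learning animals lay above the control mean in both genes, and both calls held when any 1 array was left out. Over the 346 other genes described above, which were chosen for a wider gap between probe sets, the dimmest minus the brightest was 0.17 higher in the learning arrays. The shifts of Rgs2 and Rgs4 were tested against 0 and not against that value. The share of probe set pairs over the whole array that pass the same test is not given here, so these calls have no background beside them. A probe set reads a stretch of a transcript, and which stretch each of these reads was not analysed here.

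**Figure D5:**
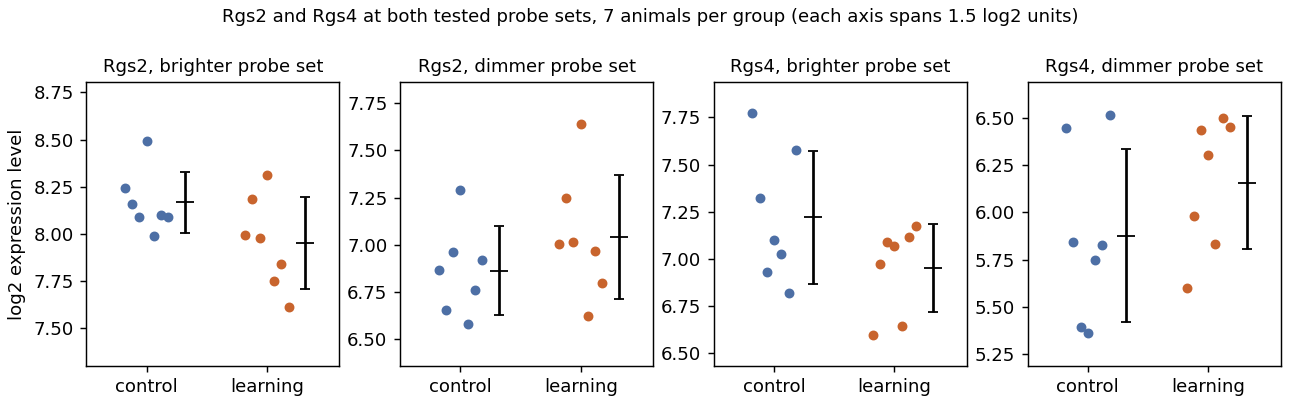
Log2 expression level (vertical axis, each panel spanning the same number of log2 units) of Rgs2 and Rgs4 at their brighter and dimmer probe sets, 1 point per animal, with the mean and SD of 7 animals beside each group. The learning mean is the lower one at both brighter probe sets and the higher one at both dimmer ones.

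Of the other pairs of probe sets compared in the same way, none passed. The shift was 0.43 for Gna12 (adjusted exact p = 0.0979), 0.22 for Gnaz and -0.18 for Gnas (adjusted exact p = 0.0816 for both). In Gna12 and Gnaz all 7 learning animals lay above the control mean of the difference. For Gnb1 it was 0.0408 and 0.0818 and for Gnb2 -1.52e-04 (adjusted exact p = 0.998 for all 3). Gna12 and Gnaz passed without control replicate 1 (adjusted exact p = 0.0338 for both), and Gnas passed without learning replicate 3 (adjusted exact p = 0.0124).

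Several RGS genes are neighbours on rat chromosome 13 with no other protein-coding gene between them in RefSeq. Rgs4 and Rgs5 form such a pair, with -0.27 and 0.39 at their brightest probe sets, and neither passed. Rgs8 and Rgs16 form another, with 0.38 for Rgs8 and Rgs16 below the filter. Rgs2, Rgs1 and Rgs18 belong to a run of 5 genes there whose other 2, Rgs13 and Rgs21, were not among the genes matched. Of the 3 measured, Rgs2 lay above the filter.

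The genes around the G proteins were taken from 9 lists of receptors, effectors and modulators, with 107 genes on the array and 51 tested at their brightest probe sets. Of these 51, 1 was called higher and 0 lower, and 5 higher and 3 lower ones had an unadjusted p under 0.05. Over all 6836 genes tested in this way, 1.59% were called higher and 0.98% lower. At the unadjusted threshold the shares over all genes were 6.33% higher and 12.3% lower. The lists were not tested against these shares. Plcb1, the phospholipase C that Gq activates, rose from 9.25 ± 0.08 to 9.43 ± 0.06, by 0.18 on the log2 scale (SE 0.0415, adjusted p = 0.0302). Its groups did not overlap, which held for 1.4% of all genes tested at their brightest probe sets. The Plcb1 call was lost without control replicate 3 or learning replicate 3, 4, 6 or 7 (adjusted p between 0.0513 and 0.0645). It was also lost with the Gapdh ratio (adjusted p = 0.134), the hexokinase ratio (0.0583), the dentate level (0.0526), the probe set balance (0.526) or the spike-in level (0.0687) as covariate. The other phospholipase tested, Plcb4, had -0.11 (adjusted p = 0.246).

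Effectors of Gi/o did not pass at their brightest probe sets. Of 3 GIRK channel genes, which carry the potassium current opened by beta and gamma subunits, Kcnj3 had 0.28 (SE 0.11, adjusted p = 0.186). A dimmer Kcnj3 probe set, named after its value was seen, had 0.28 (SE 0.0728) and passed (adjusted p = 0.0466). That call was lost without control replicate 1, 2, 3, 4 or 7 and without any one of the learning replicates (adjusted p between 0.0502 and 0.0929). It was also lost without a filter (adjusted p = 0.0927), with the filter at the 20th percentile (0.067), with array weights (0.0584) and with the Gapdh ratio (0.126), the hexokinase ratio (0.0537), the dentate level (0.0834) or the probe set balance (0.432) as covariate. It held in 8 of 27 alternatives. Of 4 adenylyl cyclases 0 passed or had an unadjusted p under 0.05 in limma (2.57% and 18.6% over all genes), and 1 lay above 0. Adcy2, the cyclase of lowest p, had -0.12 (adjusted p = 0.345).

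Among receptors, 0 of 16 Gi/o-coupled, 0 of 7 Gq-coupled and 0 of 3 Gs-coupled genes passed at their brightest probe sets, while 3, 1 and 1 of them had an unadjusted p under 0.05. Over all 6836 genes tested, 2.57% passed and 18.6% had an unadjusted p under 0.05. The lowest p in each list belonged to the glutamate receptor Grm7 (0.36, adjusted p = 0.0692), the serotonin receptor Htr2c (-0.37, adjusted p = 0.116) and the serotonin receptor Htr7 (0.12, adjusted p = 0.249). Htr2c is also high in choroid plexus, whose 3 tested markers (Enpp2, Igfbp2, Ttr) averaged from 7.29 to 8.76 in control and from 6.48 to 7.30 in learning arrays, and their part in this value was not tested. A dimmer probe set of the cannabinoid receptor Cnr1, named after its value was seen, was 0.97 higher (SE 0.16, adjusted p = 0.0055), while the brightest had -0.0223 (adjusted p = 0.858). The dimmer call was lost with the Gapdh ratio (adjusted p = 0.0691) or the probe set balance (adjusted p = 0.492) as covariate. Receptor kinases and arrestins (3 tested), other modulators (8 tested) and RGS-box proteins outside the RGS genes (5 tested) had 0 calls and 0 with an unadjusted p under 0.05. Their lowest p-values belonged to Grk2 (0.0949, adjusted p = 0.390), Rasd1 (0.16, adjusted p = 0.291) and Arhgef11 (0.0859, adjusted p = 0.519).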

How the data were processed

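Array values came from a table the authors deposited with log2 expression levels, 1 column per animal and 15923 probe sets. Per the submitters' processing notes they were made with GCRMA. The GCRMA version is not given in sources used here. That the scale is log2 was read off the values (column medians 5.07 to 5.09). GCRMA compresses differences near background. Correlations between arrays ran from 0.983 to 0.995 and no columns were identical. Arrays have no read depth, so their number limits the precision.

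Animals were grouped and numbered by sample title, which calls them biological replicates. Genes came from GEO's platform annotation, and all 35 members matched RefSeq GRCr8 by Entrez ID with the same symbol. The 57 control probe sets and 6346 with a mean below the 40th percentile were left out. limma 3.58.1 (R 4.3.3; lmFit, then eBayes) was run on the other 9520, learning minus control, with Benjamini-Hochberg adjustment. "Rose" is used only of called probe sets. Single values per array were compared by two-sided exact permutation tests over 3432 assignments, adjusted by Benjamini-Hochberg within the 8 probe set pairs. Quality and marker tests were not adjusted. The procedure was tested on simulated data in which probe sets varied independently. Those data held no effect shared within an array, so such effects were not covered.

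The members and lists were chosen with earlier results of these data known. Values by animal are given for called members and the 3 of lowest p per class, then the other tested members by their log2 fold change. Rgs2, Rgs4, Rgs5, Rgs14, Gnai2, Gng11 and others shown by range besides were chosen after their values were seen. Alternatives were other filters, variance models, array weights, normalizations, covariates, the replicate number as a block, each array left out and other probe set choices. The spike-in covariate and the alternatives of the probe set pairs were added after the data were seen. The titles do not say whether the replicate numbers pair animals, and the animals were treated as unpaired. Correlations of same-numbered residuals ran from -0.16 to 0.13.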

Additional observations from a re-analysis of the deposited data

Results flagged for a closer look

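In 7 of 72 sets of 7 values (36 tested member probe sets in each group), 1 array stood far from the other 6 by Dixon's test, and chance gives about 1 in 20. Control replicate 5 was the low one in 4 of these. It lay at 8.80 for Gnai1 (nearest other control 9.16), at 3.46 for Gnaq (4.28), at 4.86 for Rgs8 (5.62) and at 4.79 for the dimmer probe set of Gna12 (6.18). The same array stood apart with a high Gapdh 3'/5' ratio of 0.64 on the log2 scale (nearest 0.52), a high hexokinase ratio of 2.57 (nearest 1.61) and a low probe set balance of -3.65 (nearest -3.43). Whether these measures bear on its low levels of the 4 genes was not tested.

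Control replicate 3 was high for Gng11 at 5.30 (nearest 4.49), and learning replicate 5 was high for Rgs10 at 9.05 (nearest 8.75). Learning replicate 4 was low for a dimmer probe set of Gnb1 at 6.77 (nearest 7.95). Control replicate 6 had a low spike-in level of 8.73 (nearest 8.94).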

How the results depend on the processing

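The 2 member calls (2 genes at their brightest probe sets and 2 probe sets in all) fell to 1 without a filter on dim probe sets and with the spike-in level as covariate. Both counts were 0 in limma with the Gapdh ratio (5 member probe sets at unadjusted p under 0.05) and with the probe set balance (5 likewise). They ran from 2 to 3 with single arrays left out and were 2 in the other alternatives. Called probe sets over the whole array numbered 319 as reported, 158 without a filter, 39 with the Gapdh ratio as covariate, 177 with the hexokinase ratio, 163 with the dentate level, 143 with the spike-in level and 0 with the probe set balance (846 at unadjusted p under 0.05). With single arrays left out they ran from 163 to 352. The block by replicate number, which the titles do not say pairs the animals, gave 313 called probe sets and 2 member calls. Of the 7 control arrays, 2 correlated best with the learning array of their own number. Of the 26 tested members that were not called, 1 (Rgs12) was called in an alternative, and 19 changed sign in at least 1, 62 of 769 values in all. The 769 include changes of filter, variance model, adjustment and replicate block, which leave a log2 fold change as it is and cannot change its sign. Why calls were lost with a covariate was not tested. Signal near background limits Gna11, Gnaq, Gng8 and Gng11, the members of lowest mean among those tested, and the 7 genes below the filter used were not tested there.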
